A study of Mus musculus with 12 samples.

Results

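The 10 genes described here encode the chemokines and growth factor that draw and sustain neutrophils, their receptors, and proteins that neutrophils carry. They are Cxcl1, Cxcl2, Cxcl3, Cxcl5, Cxcr2, Csf3, Csf3r, S100a8, S100a9 and Retnlg, taken by name from a count table of 24062 genes. All 10 were in the table, and 9 of them passed the filter on low counts, as did 15060 genes in all. Csf3 did not pass and is given as reads.

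The study sequenced RNA of colon tumours from Balb/c bone marrow chimeras, mice whose own blood-forming cells were replaced by a donor's after irradiation. Groups are written marrow => host, and each had 3 tumours labelled as biological replicates. St2-/- => St2-/- mice lacked ST2, the receptor for the cytokine IL-33, in both compartments, WT => St2-/- mice lacked it in the host alone, St2-/- => WT mice lacked it in the marrow alone, and WT => WT mice carried it in both. All 4 groups were irradiated, transplanted and injected with azoxymethane (AOM), a carcinogen that induces colon tumours, and were killed for their tumours at 13 or 14 weeks from the final injection. The mice were 11 males and 1 female, replicate 3 of WT => St2-/-. Radiation-resistant blood cells of the host can persist in such mice, and the mutation was not restricted to a cell type in either compartment.

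CXCL1, CXCL2, CXCL3 and CXCL5 are small secreted chemokines that bind the receptor CXCR2 on neutrophils and guide them out of the blood into tissue. In the gut they are made by epithelial cells, fibroblasts and myeloid cells after signals such as IL-1, IL-17 and TNF. Granulocyte colony-stimulating factor, encoded by Csf3, drives the making of neutrophils through its receptor, encoded by Csf3r. S100A8 and S100A9 form calprotectin, a calcium- and metal-binding complex abundant in neutrophils and monocytes and also made by squamous and inflamed epithelia, and resistin-like gamma, encoded by Retnlg, is a mouse protein of neutrophils.

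The 4 chemokine genes lie close together on chromosome 5. In GENCODE M21 on GRCm38, Cxcl5 spans chr5:90759360-90761624, Cxcl3 chr5:90786103-90789600, Cxcl1 chr5:90891241-90893115 and Cxcl2 chr5:90903871-90905938, all on the plus strand. S100a8 at chr3:90668978-90670035 on the plus strand and S100a9 at chr3:90692632-90695721 on the minus strand neighbour each other. The RefSeq promoter table held 8 of the 10 genes. The 120 bases before the RefSeq start (GRCm38.p6) were searched on both strands for GGG, any pair of bases and TTTCC. This is a form of the site bound by NF-kappaB, 1 of the factors through which IL-1, IL-17 and TNF can act on chemokine genes. The letters were found in 3 of the 8, Cxcl1, Cxcl2 and Cxcl3, and in 234 of 27025 genes, 0.866%. By promoter window of that length, the count was 242 of 32851, 0.737%. The promoters of these 3 chemokine genes are shown because the letters recur in them at similar places, with the matches in capitals and the plus strand read 5′ to 3′.
Cxcl1, chr5:90891125-90891244: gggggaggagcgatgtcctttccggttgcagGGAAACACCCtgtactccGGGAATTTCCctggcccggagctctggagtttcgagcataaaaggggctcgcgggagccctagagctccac
Cxcl2, chr5:90903779-90903898: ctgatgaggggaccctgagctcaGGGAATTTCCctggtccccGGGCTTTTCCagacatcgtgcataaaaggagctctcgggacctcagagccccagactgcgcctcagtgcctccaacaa
Cxcl3, chr5:90785981-90786100: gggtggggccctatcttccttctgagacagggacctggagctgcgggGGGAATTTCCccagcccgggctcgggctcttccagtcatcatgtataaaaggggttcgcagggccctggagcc

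The run GGGAATTTCC began 71 bases before the start in Cxcl1, 97 in Cxcl2 and 73 in Cxcl3. Cxcl1 and Cxcl2 each held a further match, which began 89 bases before the start of Cxcl1 and read GGGTGTTTCC on the minus strand, and 78 bases before the start of Cxcl2, where it read GGGCTTTTCC. A match is a run of letters and not a measured binding site, and the windows of Cxcr2, Csf3r, S100a8, S100a9 and Retnlg did not hold these letters.

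Gene counts per library summed to between 10293818 and 12962496. Il1rl1, which encodes ST2, averaged 12.7 ± 6.47 CPM (counts scaled to library size) in St2-/- hosts and 136 ± 88.7 CPM in WT hosts (SD, n = 6 each), without overlap, and its log2 fold change between hosts by the edgeR quasi-likelihood test was -3.42 (SE 0.52, adjusted p = 0.00984). For St2-/- marrow against WT marrow it was -0.42 (SE 0.48, edgeR adjusted p = 0.999), with overlap. In St2-/- => St2-/- against WT => St2-/- it was -0.47 (SE 0.70, edgeR adjusted p = 0.996), also with overlap. Il1rl1 thus did not separate the marrows, and the marrow genotype is taken from the labels. St2-/- hosts were all labelled with 3-digit numbers and WT hosts with 5-digit numbers, so a difference of cohort cannot be told apart from one of host genotype. Markers of smooth muscle, summed over 10 genes, reached 3538 CPM in WT => St2-/- replicate 2 and 1660 CPM in replicate 3, against 337 CPM in replicate 1. They reached 2922 CPM in St2-/- => WT replicate 1 and 1502 CPM in replicate 2, against 507 CPM in replicate 3. The range was 231 to 504 CPM in St2-/- => St2-/- and 231 to 488 CPM in WT => WT. For the members, fold changes that use WT => St2-/- are therefore also given without its replicates 2 and 3. Those that use St2-/- => WT are also given without its replicates 1 and 2, a choice made after the values were seen. The library left in a group is then assumed to vary as the other groups did. Fold changes of other genes and of gene lists are given from all 12 libraries only. The p-values measure the spread between these tumours.

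Per kilobase of exon, the calgranulins had the highest means over all 12 libraries, but not within each group. Over the 12 libraries, S100a9 averaged 95.9 RPKM (CPM divided by exon length in kilobases), S100a8 75.8 RPKM and Cxcl5 55.6 RPKM. Cxcl1 followed at 9.76 RPKM, Cxcl2 at 6.63 RPKM and Csf3r at 4.88 RPKM, and the other 4 members averaged between 0.326 RPKM for Csf3 and 1.99 RPKM for Cxcr2. In St2-/- => WT, Cxcl5 had the highest mean, 67.1 RPKM, against 56.5 for S100a9 and 38.4 for S100a8. In WT => St2-/- it was also highest, at 38.2 RPKM, against 37.0 for S100a9 and 27.0 for S100a8. In St2-/- => St2-/- the means were 74.6 RPKM for S100a9, 52.9 for Cxcl5 and 32.2 for S100a8. The spread between libraries was wider for the calgranulins than for the other members. The highest library held 150 times the CPM of the lowest for S100a8 and 68.0 times for S100a9, against 28.4 times for Cxcr2, 10.7 times for Csf3r, 4.93 times for Cxcl5 and 3.43 times for Cxcl1. The lowest S100a8 value, in WT => St2-/- replicate 2, rested on 14 reads and the highest, in WT => WT replicate 3, on 2299 reads.

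**Figure D1:**
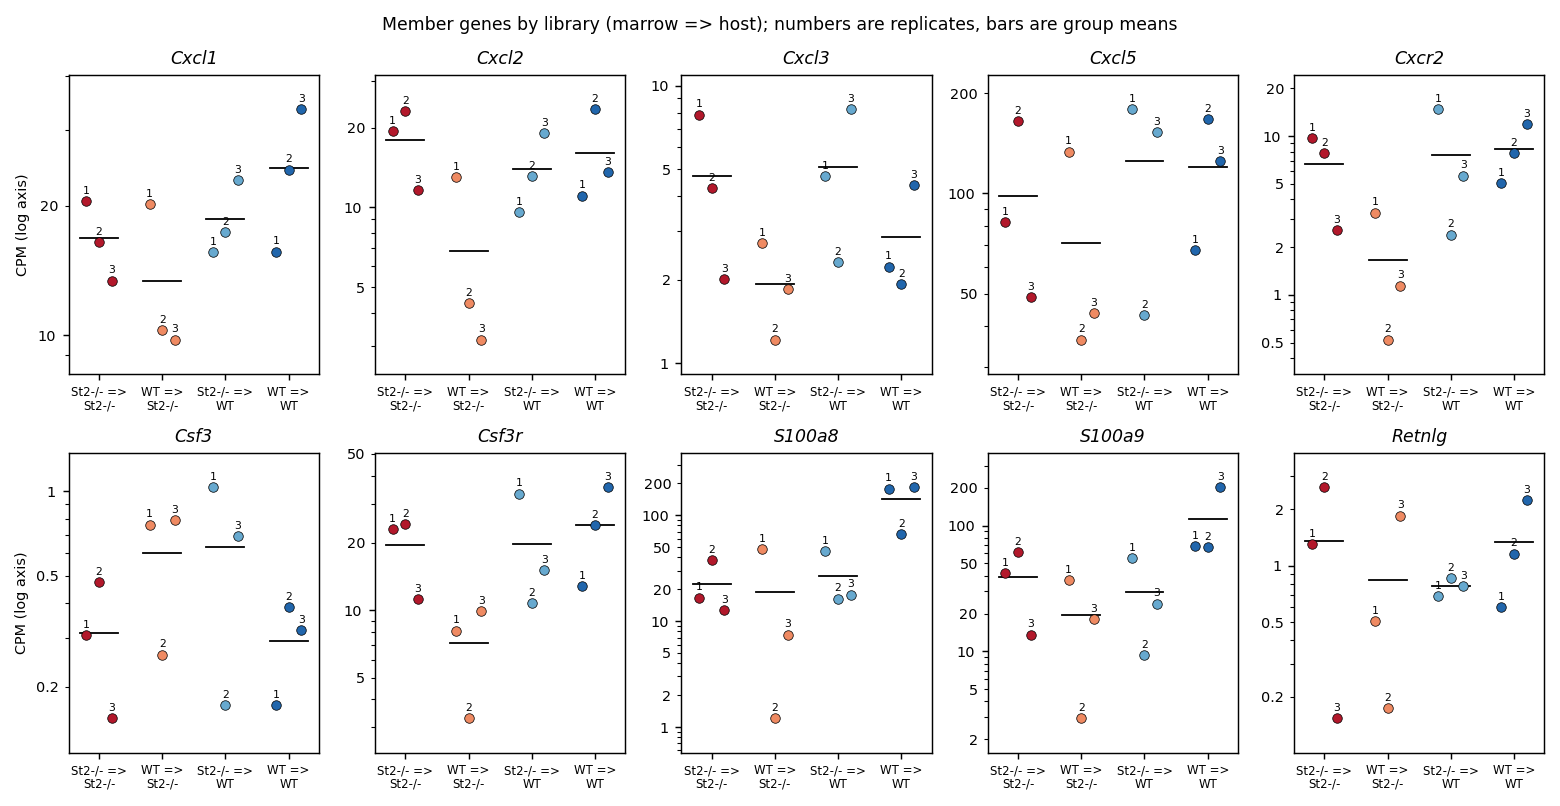
CPM of each gene on a log axis, 1 panel a gene, with 1 point a library (replicate number beside it) and a bar at the mean of each marrow => host group. The 3 WT => WT libraries stand above all others for S100a8 (66.7 to 183 CPM) and S100a9 (67.8 to 201 CPM), while most other panels overlap between groups.

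Among the chemokine ligands, Cxcl5 had the most reads. It was measured at 81.9, 165 and 48.7 CPM in St2-/- => St2-/- replicates 1, 2 and 3, at 134, 36.3 and 43.6 CPM in WT => St2-/-, at 179, 43.0 and 153 CPM in St2-/- => WT and at 67.7, 167 and 125 CPM in WT => WT. Each group held both higher and lower libraries, and all groups overlapped. Of the reads on the 4 chemokine genes, Cxcl5 held between 56.8% and 85.7% in each library.

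Cxcl1, the main mouse counterpart of the human GRO chemokines, was at 20.5, 16.5 and 13.4 CPM in St2-/- => St2-/-, 20.1, 10.3 and 9.76 CPM in WT => St2-/-, 15.6, 17.3 and 22.9 CPM in St2-/- => WT and 15.6, 24.3 and 33.5 CPM in WT => WT. Replicates 2 and 3 of WT => St2-/- were the lowest of the 12 libraries, and replicates 2 and 3 of WT => WT the highest. Cxcl2, a chemokine made in quantity by activated myeloid cells, was at 19.4, 23.0 and 11.6 CPM in St2-/- => St2-/-, 13.0, 4.35 and 3.16 CPM in WT => St2-/-, 9.56, 13.1 and 19.0 CPM in St2-/- => WT and 11.1, 23.5 and 13.6 CPM in WT => WT. The same pair of WT => St2-/- libraries was lowest, while replicate 1 of that group lay among the others. Cxcl3, a close relative of Cxcl2, was at 7.87, 4.27 and 2.01 CPM in St2-/- => St2-/-, 2.71, 1.22 and 1.85 CPM in WT => St2-/-, 4.74, 2.31 and 8.24 CPM in St2-/- => WT and 2.23, 1.93 and 4.38 CPM in WT => WT. Its 3 highest libraries were spread over both groups with St2-/- marrow, and all groups overlapped.

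Of the receptors, Cxcr2 was at 9.78, 7.83 and 2.55 CPM in St2-/- => St2-/-, 3.30, 0.522 and 1.14 CPM in WT => St2-/-, 14.8, 2.40 and 5.64 CPM in St2-/- => WT and 5.07, 7.83 and 11.9 CPM in WT => WT. All 3 WT => St2-/- libraries lay below all 3 WT => WT libraries, and both other groups overlapped each of these. In replicates 1, 2 and 3 of WT => St2-/-, Cxcr2 rested on 39, 6 and 13 reads. Csf3r was at 23.1, 24.3 and 11.2 CPM in St2-/- => St2-/-, 8.12, 3.30 and 9.93 CPM in WT => St2-/-, 33.3, 10.8 and 15.1 CPM in St2-/- => WT and 12.8, 24.0 and 35.4 CPM in WT => WT. The 3 WT => St2-/- libraries were the lowest of the 12. For Csf3r this split was noted after the values were seen, and the share of all genes with such a split is not given here. Between WT => St2-/- and WT => WT alone, 17.7% of all genes did not overlap. The ligand gene Csf3 had 4, 6 and 2 reads in St2-/- => St2-/-, 9, 3 and 9 in WT => St2-/-, 12, 2 and 8 in St2-/- => WT and 2, 4 and 4 in WT => WT, too few to compare at this depth.

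The calgranulins were highest in WT => WT. S100a8 was at 16.7, 37.8 and 12.6 CPM in St2-/- => St2-/-, 47.6, 1.22 and 7.47 CPM in WT => St2-/-, 45.8, 16.3 and 17.8 CPM in St2-/- => WT and 178, 66.7 and 183 CPM in WT => WT. S100a9 was at 41.8, 61.5 and 13.6 CPM in St2-/- => St2-/-, 36.9, 2.96 and 18.0 CPM in WT => St2-/-, 55.1, 9.34 and 23.9 CPM in St2-/- => WT and 68.5, 67.8 and 201 CPM in WT => WT. For both genes, the lowest WT => WT library exceeded the highest of the 9 other libraries. Among the genes tested, 282 or 1.87% had all 3 WT => WT libraries above the 9 others, and this split was chosen after the values were seen. Retnlg, at 0.155 to 2.61 CPM, had 2 to 33 reads a library and no group stood apart.

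**Figure D2:**
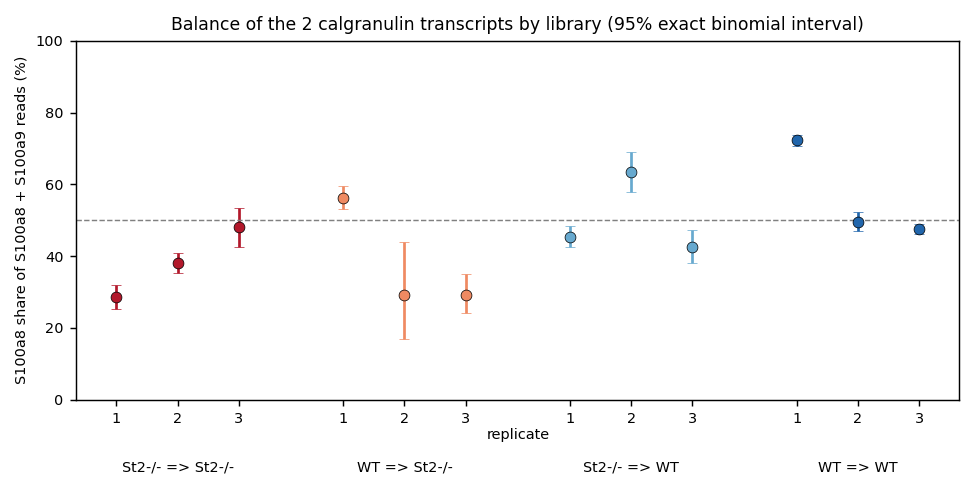
Percent of the reads on S100a8 and S100a9 together that fell on S100a8, 1 point a library by marrow => host group, with exact 95% binomial intervals and a dashed line at 50%. The share lay between 28.5% in St2-/- => St2-/- replicate 1 and 72.2% in WT => WT replicate 1, and all groups overlapped, St2-/- => St2-/- and WT => WT through 1 library on each side (48.1% and 47.6%).

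Although the products of S100a8 and S100a9 act as a pair, their reads were not in a fixed ratio. S100a8 took 28.5%, 38.1% and 48.1% of their summed reads in St2-/- => St2-/- and 56.3%, 29.2% and 29.3% in WT => St2-/-. It took 45.4%, 63.5% and 42.6% in St2-/- => WT and 72.2%, 49.6% and 47.6% in WT => WT. The exact (Clopper-Pearson) 95% interval was 70.6% to 73.9% for WT => WT replicate 1, 46.2% to 49.1% for replicate 3 of the same group, and 17.0% to 44.1% for WT => St2-/- replicate 2. Libraries of 1 group thus differed by more than counting error. All groups overlapped, though the shares in St2-/- => St2-/- and WT => WT did so through 1 library of each, at 48.1% and 47.6%. These intervals cover counting error only.

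In the comparison of St2-/- hosts with WT hosts, averaged over both marrows, edgeR called 0 of the 9 tested members at an adjusted p under 0.05, the threshold used throughout, against 1.37% of all genes tested. At an unadjusted p under 0.05 the count was 3 of 9, against 20.6% of all genes. DESeq2 called 0 members, against 7.94% of all genes, and limma-voom called 1, S100a8 (adjusted p = 0.0144), along with 12.2% of all genes. S100a8 averaged 20.6 ± 18.2 CPM in St2-/- hosts and 84.6 ± 76.7 CPM in WT hosts (SD, n = 6 each), a log2 fold change of -1.59 (SE 0.68, adjusted p = 0.221). Cxcr2 averaged 4.19 ± 3.76 CPM in St2-/- hosts and 7.93 ± 4.63 CPM in WT hosts (SD, n = 6 each), with a log2 fold change of -1.24 (SE 0.55, adjusted p = 0.234). Csf3r averaged 13.3 ± 8.47 CPM in St2-/- hosts and 21.9 ± 10.7 CPM in WT hosts (SD, n = 6 each), with a log2 fold change of -0.88 (SE 0.38, adjusted p = 0.225).

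The remaining fold changes between hosts were smaller against their errors. They were -1.07 for S100a9 (SE 0.62), -0.51 for Cxcl1 (SE 0.24), -0.55 for Cxcl5 (SE 0.46), -0.43 for Cxcl2 (SE 0.36), -0.34 for Cxcl3 (SE 0.42) and 0.067 for Retnlg (SE 0.65), on the log2 scale, with adjusted p between 0.263 and 0.963. The value was thus below 0 for 8 of 9 members, as for 50.2% of all genes tested, and the median over the members was -0.55. None of the 9 had hosts that did not overlap, against 2.68% of all genes. Without WT => St2-/- replicates 2 and 3, the log2 fold change was -0.92 for S100a8, -0.75 for Cxcr2, -0.79 for Csf3r and -0.60 for S100a9, and it lay between -0.29 for Retnlg and 0.038 for Cxcl2 for the other 5. Without St2-/- => WT replicates 1 and 2, it was -1.29 for S100a8, -1.02 for Cxcr2, -0.69 for Csf3r and -0.91 for S100a9, and between -0.69 for Cxcl5 and 0.068 for Retnlg for the other 5. Without St2-/- => WT replicate 1 alone, Cxcr2 was at -0.78, Csf3r at -0.58 and S100a9 at -0.66. Without WT => St2-/- replicate 1 instead, that of S100a8 was -2.63 and was called (edgeR adjusted p = 0.0388), as were 3.15% of all genes. That fit keeps replicates 2 and 3 of the group, which were high in smooth muscle markers and held 14 and 85 S100a8 reads.

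Within WT marrow, the distance between hosts was wider. Comparing WT => St2-/- with WT => WT, edgeR again called 0 of 9 members, against 0.159% of all genes, with 6 of 9 at an unadjusted p under 0.05, against 16.7% of all genes. DESeq2 called Csf3r (adjusted p = 0.0326) and S100a9 (adjusted p = 0.0409), with 4.95% of all genes, and limma-voom called S100a8 (adjusted p = 0.0374), with 2% of all genes. All 9 fold changes were below 0, as were 49.1% of those of all genes, and their median was -1.23. For Cxcr2, Csf3r, S100a8 and S100a9 the 2 groups did not overlap, as was so for 17.7% of all genes.

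S100a8 averaged 18.7 ± 25.1 CPM in WT => St2-/- and 143 ± 65.8 CPM in WT => WT (SD, n = 3 each), and the edgeR log2 fold change was -2.93 (SE 1.00, adjusted p = 0.200). It was -1.58 without WT => St2-/- replicates 2 and 3, and -5.03 without replicate 1, where edgeR called it (adjusted p = 0.0478) with 0.924% of all genes. In that fit the group is represented by replicates 2 and 3 alone, which were high in smooth muscle markers. For S100a9, at 19.3 ± 17.0 CPM in WT => St2-/- and 112 ± 76.7 CPM in WT => WT (SD, n = 3 each), the log2 fold change was -2.54 (SE 0.91, edgeR adjusted p = 0.214), and -1.61 without replicates 2 and 3. The receptor Csf3r, at 7.12 ± 3.43 CPM in WT => St2-/- and 24.1 ± 11.3 CPM in WT => WT (SD, n = 3 each), had an edgeR log2 fold change of -1.76 (SE 0.55, adjusted p = 0.185), or -1.56 without those replicates. Cxcr2 averaged 1.65 ± 1.46 CPM in WT => St2-/- and 8.25 ± 3.42 CPM in WT => WT (SD, n = 3 each), with an edgeR log2 fold change of -2.31 (SE 0.81, adjusted p = 0.210), or -1.32 without them.

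The fold changes of the ligands were nearer 0 than those of the receptors and calgranulins in this comparison. Cxcl2 averaged 6.85 ± 5.39 CPM in WT => St2-/- and 16.1 ± 6.55 CPM in WT => WT (SD, n = 3 each), and the edgeR log2 fold change was -1.23 (SE 0.53, adjusted p = 0.277), and -0.30 without WT => St2-/- replicates 2 and 3. Cxcl1 averaged 13.4 ± 5.86 CPM in WT => St2-/- and 24.5 ± 8.94 CPM in WT => WT (SD, n = 3 each), and the edgeR log2 fold change was -0.87 (SE 0.35, adjusted p = 0.253), and -0.28 without them. The log2 fold changes of Cxcl5 (-0.75, SE 0.65), Cxcl3 (-0.57, SE 0.61) and Retnlg (-0.66, SE 0.92) were near the size of their errors. Without those replicates they were 0.16 for Cxcl5, -0.076 for Cxcl3 and -1.38 for Retnlg. The difference in size between ligands and receptors was not tested.

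**Figure D3:**
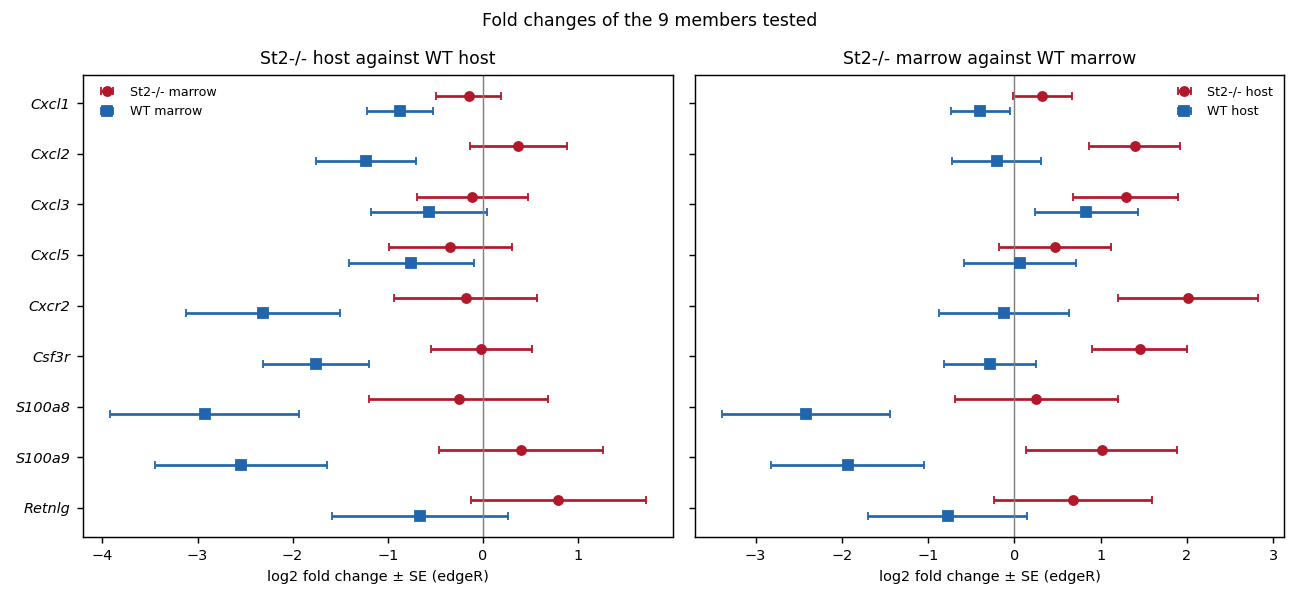
Log2 fold changes with SE from edgeR for the 9 genes tested, St2-/- host against WT host on the left (red circles within St2-/- marrow, blue squares within WT marrow) and St2-/- marrow against WT marrow on the right (red circles within St2-/- hosts, blue squares within WT hosts). Within WT marrow S100a8 lies at -2.93 and S100a9 at -2.54 between hosts, while within St2-/- marrow the genes lie between -0.34 and 0.79.

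Within St2-/- marrow, the members lay closer to 0 between hosts. St2-/- => St2-/- against St2-/- => WT gave log2 fold changes from -0.34 for Cxcl5 to 0.79 for Retnlg, edgeR called 0 of 9 members, against 0.0598% of all genes, and 0 of 9 had an unadjusted p under 0.05, against 12% of all genes. Without St2-/- => WT replicates 1 and 2 they lay between -0.80 for Cxcl3 and 0.79 for Retnlg. DESeq2 and limma-voom called 0 members too, against 1.74% and 12.9% of all genes. All 9 overlapped between the groups, while 23.2% of all genes did not. The test of whether the host difference depended on the marrow, the host by marrow interaction, gave 9 of 9 values above 0, with a median of 1.60, where 49% of all genes were above 0. By edgeR, it called 0 of 9 members, and 0% of all genes, with 2 of 9 at an unadjusted p under 0.05, against 7.6% of all genes. DESeq2 and limma-voom called 0 members, against 0.618% and 0.0266% of all genes. The interaction, on the log2 scale, was 2.95 for S100a9 (SE 1.24, edgeR adjusted p = 0.647), 2.67 for S100a8 (SE 1.34), 2.13 for Cxcr2 (SE 1.10), 1.74 for Csf3r (SE 0.76) and 1.60 for Cxcl2 (SE 0.73), and the smallest adjusted p over these 5 was 0.647. Without WT => St2-/- replicates 2 and 3 these 5 values were 2.01, 1.33, 1.14, 1.55 and 0.67, and those of Cxcl5 and Cxcl3 were below 0, at -0.50 and -0.036. Without St2-/- => WT replicates 1 and 2 the 5 were 3.25, 3.26, 2.57, 2.13 and 1.16, and Cxcl3 was at -0.24.

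For loss of ST2 in the marrow, the members lay on both sides of 0. Averaged over hosts, St2-/- marrow against WT marrow had 0 of 9 members called by edgeR, and 0% of all genes, with 1 of 9 at an unadjusted p under 0.05, against 2.76% of all genes, and DESeq2 and limma-voom called 0 members and 0% of all genes. The ends of the range were -1.08 for S100a8 (SE 0.67) and 1.06 for Cxcl3 (SE 0.43), each with an edgeR adjusted p of 0.999, and 5 of 9 values were above 0, against 49.1% of all genes. The value of S100a8 was -0.038 without WT => St2-/- replicate 1, -1.76 without replicates 2 and 3 of that group and -1.37 without St2-/- => WT replicates 1 and 2. That of Cxcl3 was 0.81 without WT => St2-/- replicates 2 and 3, 1.41 without St2-/- => WT replicates 1 and 2, and 0.45 by limma-voom. Cxcl3 averaged 4.91 ± 2.66 CPM with St2-/- marrow and 2.39 ± 1.09 CPM with WT marrow (SD, n = 6 each), with overlap, and none of the 9 had marrows that did not overlap, against 0.113% of all genes.

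In WT hosts, St2-/- => WT against WT => WT set the calgranulins apart from the other members in size. S100a8 averaged 26.6 ± 16.6 CPM in St2-/- => WT and 143 ± 65.8 CPM in WT => WT (SD, n = 3 each), a log2 fold change of -2.42 (SE 0.97), and S100a9 averaged 29.5 ± 23.4 CPM in St2-/- => WT and 112 ± 76.7 CPM in WT => WT (SD, n = 3 each), a log2 fold change of -1.93 (SE 0.88), both with an edgeR adjusted p of 0.798. These were the 2 members without overlap, against 10.3% of all genes. edgeR called 0 of 9 members and 0% of all genes, with 1 of 9 at an unadjusted p under 0.05, against 6.04%, and DESeq2 and limma-voom called 0 members and 0% of all genes. Without St2-/- => WT replicates 1 and 2 the values were -3.01 for S100a8 and -2.23 for S100a9, and without WT => WT replicate 3 that of S100a9 was -1.21. The highest of the other values was 0.83 for Cxcl3 (SE 0.60), or 1.53 without St2-/- => WT replicates 1 and 2 and 0.30 without replicate 3.

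In St2-/- hosts, St2-/- => St2-/- against WT => St2-/- gave 9 of 9 log2 fold changes above 0, where 48.4% of all genes had such a value, with a median of 1.01. Again edgeR called 0 of 9 members and 0% of all genes, with 3 of 9 at an unadjusted p under 0.05, against 4.05%, and DESeq2 and limma-voom called 0 members, against 0.113% and 0.0266% of all genes. The values were 2.01 for Cxcr2 (SE 0.81), 1.45 for Csf3r (SE 0.55), 1.39 for Cxcl2 (SE 0.53) and 1.29 for Cxcl3 (SE 0.61), all with an edgeR adjusted p of 0.995. Csf3r was the 1 member without overlap, against 8.8% of all genes. Without WT => St2-/- replicates 2 and 3 the 4 values were 1.02, 1.26, 0.46 and 0.80, and 3 others were below 0, S100a8 at -1.09, Cxcl5 at -0.44 and Cxcl1 at -0.27.

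Between the groups that differed in both compartments, St2-/- => St2-/- against WT => WT, edgeR called 0 of 9 members, against 0.0266% of all genes, with 1 of 9 at an unadjusted p under 0.05, against 13.7%. DESeq2 called 0 members, against 3.14% of all genes, and limma-voom called 3, S100a8 (adjusted p = 0.00648), S100a9 (adjusted p = 0.0248) and Cxcl1 (adjusted p = 0.0299), along with 11.2% of all genes. S100a8 averaged 22.4 ± 13.5 CPM in St2-/- => St2-/- and 143 ± 65.8 CPM in WT => WT (SD, n = 3 each), and its log2 fold change by edgeR was -2.67 (SE 0.98, adjusted p = 0.284). For S100a9 it was -1.53 (SE 0.87, edgeR adjusted p = 0.452) and for Cxcl1 -0.54 (SE 0.34, edgeR adjusted p = 0.497), and without WT => WT replicate 3 these were -0.81 and -0.25. S100a8 and S100a9 did not overlap between these groups, as was so for 23.8% of all genes. The comparisons with WT => WT share its 3 libraries, so that the low calgranulin values in the 3 groups that lacked ST2 in a compartment were all set against the same tumours.

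**Figure D4:**
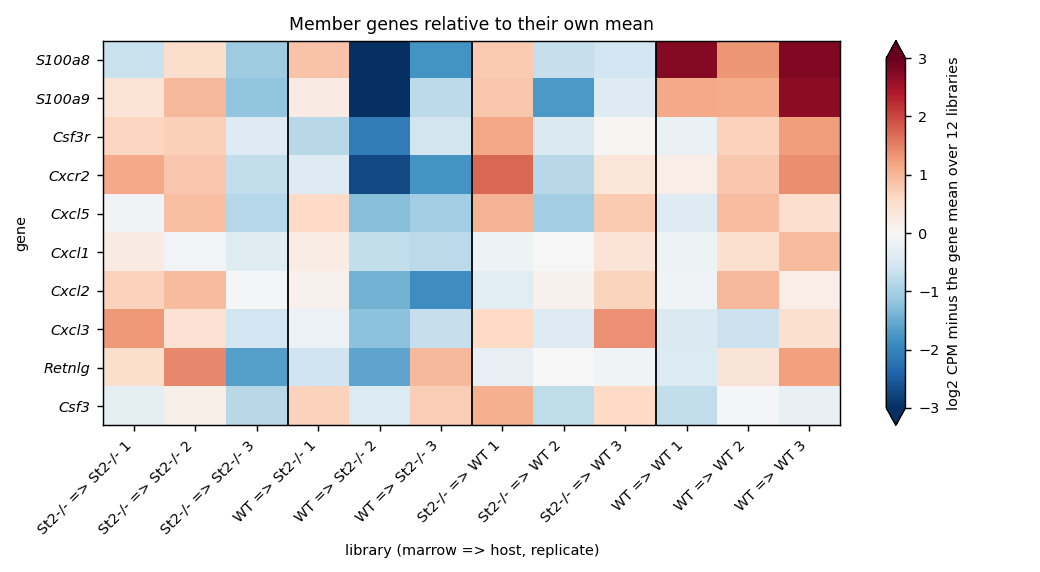
Log2 CPM of each gene (rows) in each library (columns, in marrow => host groups) minus that gene's mean over the 12 libraries, with colours saturated beyond 3 on either side. WT => St2-/- replicate 2 is the lowest library for 6 of the 10 genes, and WT => WT replicate 3 the highest for 4.

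The members varied together from tumour to tumour. Over the 12 libraries, Pearson's r of log2 CPM was above 0 for 36 of 36 pairs of the 9 tested genes, between 0.292 and 0.941 with a median of 0.654. These are descriptions, since all genes of a library share its depth, its tissue make-up and its group. The pair Cxcr2 and Csf3r stood at 0.941 and S100a8 and S100a9 at 0.914, and the ligand Cxcl5 and its receptor Cxcr2 reached 0.814. WT => St2-/- replicate 2 was the lowest library for 6 of the 10 members, and replicate 3 of that group and replicate 3 of St2-/- => St2-/- were lowest for 2 each.

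The 5 genes most like Csf3r, by Pearson's r over 12 libraries among 14191 genes, were Clec4d (0.985), Nlrp3 (0.977), Clec4e (0.969), Il1b (0.960) and Fpr2 (0.925). Clec4d and Clec4e encode lectin receptors of myeloid cells, Nlrp3 an inflammasome sensor, Il1b the cytokine IL-1 beta and Fpr2 a formyl peptide receptor. Without the 2 libraries farthest from the median of Csf3r, these values lay between 0.845 and 0.970. For S100a8 the nearest genes were Ckap4 (0.947), Gsr (0.945), Gfm1 (0.944), Lrg1 (0.944) and Dcp2 (0.938). Of these, Gsr encodes glutathione reductase and Lrg1 a secreted glycoprotein of inflamed tissue and neutrophils. For Cxcl2 they were Ppp1ca (0.912), Chn2 (0.896), Iba57 (0.892), Rraga (0.889) and Ube2e1 (0.887), of which that of Rraga was 0.302 and that of Chn2 0.467 without the 2 farthest libraries, so that these 2 rest on WT => St2-/- replicates 2 and 3.

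Genes of neutrophil identity and granules lay mostly below 0 between hosts and mostly above 0 between marrows, without a call by edgeR. Of 40 such genes, 25 were tested, and 20 of them had a log2 fold change below 0 in St2-/- hosts against WT hosts. There edgeR called 0 of 25 (8 at an unadjusted p under 0.05, all lower), with a median of -0.68 against -0.0015 over all genes. Of all genes, 50.2% were below 0, 1.37% were called and 20.6% had an unadjusted p under 0.05. In WT => St2-/- against WT => WT, 22 of 25 were below 0 and 0 were called (11 at an unadjusted p under 0.05, all lower), with a median of -1.32 against 0.0084. The shares of all genes there were 49.1% below 0, 0.159% called and 16.7% at an unadjusted p under 0.05. Within St2-/- marrow, 14 of 25 were below 0 and 0 were called (2 at an unadjusted p under 0.05, both lower), with a median of -0.034 against 0.0031. In that comparison 0.0598% of all genes were called and 12% had an unadjusted p under 0.05. For St2-/- marrow against WT marrow, 19 of 25 were above 0 and 0 were called (1 at an unadjusted p under 0.05), with a median of 0.51. Between marrows 49.1% of all genes were above 0, 0% were called and 2.76% had an unadjusted p under 0.05. In St2-/- => St2-/- against WT => St2-/-, 19 of 25 were above 0 and 0 were called (8 at an unadjusted p under 0.05, all higher), with a median of 1.02. There, 48.4% of all genes were above 0, 0% were called and 4.05% had an unadjusted p under 0.05. The interaction was above 0 for 20 of 25, against 49% of all genes, with a median of 1.26. It was called for 0 of 25 and 0% of all genes, and 6 of 25 had an unadjusted p under 0.05, against 7.6%. In St2-/- => WT against WT => WT 17 of 25 were below 0, and in St2-/- => St2-/- against WT => WT 16 of 25, with medians of -0.28 and -0.29. The medians over all genes there were 0.014 and -0.014. edgeR called 0 of 25 in each, against 0% and 0.0266% of all genes. At an unadjusted p under 0.05, 1 was higher and 1 lower in the first, against 6.04% of all genes. In the second 3 were lower and 0 higher, against 13.7%. Among the neutrophil genes with the smallest p between hosts were Slpi, a protease inhibitor of neutrophils and mucosa (-1.80, edgeR adjusted p = 0.105), Ltf, the granule protein lactoferrin (-2.23, edgeR adjusted p = 0.136), and Clec4e (-1.09, edgeR adjusted p = 0.158). The summed level of these neutrophil genes was 1341 to 1938 CPM in St2-/- => St2-/-, 1049 to 1679 CPM in WT => St2-/-, 1386 to 2373 CPM in St2-/- => WT and 2199 to 2501 CPM in WT => WT. Pglyrp1, a bactericidal protein of neutrophil granules, had the most reads of the list, 5932 to 12673 a library. Over the 12 libraries it had 110821 reads, followed by Cd177 (33760), Slpi (27762) and Lcn2 (22468). Which cells made these transcripts was not tested, so the summed level is not a measure of neutrophils alone. The mean log2 CPM of the tested genes of the list, in which each gene counts alike, was 3.33 to 4.08 in St2-/- => St2-/-, 2.13 to 3.16 in WT => St2-/-, 3.40 to 4.31 in St2-/- => WT and 3.36 to 4.24 in WT => WT. By this measure WT => WT overlapped both groups with St2-/- marrow, and WT => St2-/- lay below the other groups. Among genes that neutrophils use mainly while they mature, reads over all 12 libraries together were 2 for Elane, 4 for Ngp, 10 for Cebpe, 13 for Camp, 36 for Prtn3, 83 for Mmp8 and 105 for Mpo. Others of that stage had more, with 394 reads for Olfm4, 5061 for Ltf and 22468 for Lcn2, of which Olfm4 and Lcn2 can also be made by gut epithelium.

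Markers of other cell types differed between libraries as well. In St2-/- hosts against WT hosts, 50.2% of all genes were below 0, 1.37% were called by edgeR and 20.6% had an unadjusted p under 0.05. Of 16 monocyte and macrophage markers, 15 were below 0 in St2-/- hosts against WT hosts with 0 called by edgeR (6 at an unadjusted p under 0.05) and a median of -0.61, and their summed level was 816 to 1083 CPM in St2-/- => St2-/-, 429 to 914 CPM in WT => St2-/-, 755 to 1250 CPM in St2-/- => WT and 850 to 1785 CPM in WT => WT. All 10 mast cell markers were above 0, with 0 called by edgeR (7 at an unadjusted p under 0.05) and a median of 1.52, and their sum reached 2195 CPM in WT => St2-/- replicate 2, against 132 to 193 CPM in WT => WT. Of 11 epithelial markers, 9 were below 0 in St2-/- hosts against WT hosts, with 0 called by edgeR (4 at an unadjusted p under 0.05). They summed to 10096 to 11686 CPM in St2-/- => St2-/-, 6511 to 15179 CPM in WT => St2-/-, lowest in its replicate 2, 14973 to 20253 CPM in St2-/- => WT and 11960 to 19283 CPM in WT => WT. Squamous epithelial markers summed to 79.5 to 620 CPM in St2-/- => St2-/-, highest in its replicate 2, 109 to 178 CPM in WT => St2-/-, 112 to 320 CPM in St2-/- => WT and 78.3 to 225 CPM in WT => WT. All 10 smooth muscle markers were above 0 in WT => St2-/- against WT => WT, with 0 called by edgeR (7 at an unadjusted p under 0.05) and a median of 2.66. The same counts held in St2-/- => WT against WT => WT, with a median of 2.47. Within St2-/- marrow all 10 were below 0 in St2-/- hosts against WT hosts, with 0 called by edgeR (7 at an unadjusted p under 0.05) and a median of -2.24. In these comparisons, in that order, 0.159%, 0% and 0.0598% of all genes were called and 16.7%, 6.04% and 12% had an unadjusted p under 0.05. The part of these cells in the members' values was not tested, and in bulk RNA fewer cells of a type and less RNA per cell cannot be told apart.

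Genes of the IL-17, IL-1 and NF-kappaB pathways induce these chemokines or are induced with them. Among the 27 tested, edgeR called 1 between hosts, against 1.37% of all genes. It was Nos2, the gene of inducible nitric oxide synthase. It averaged 51.9 ± 33.4 CPM in St2-/- hosts and 363 ± 144 CPM in WT hosts (SD, n = 6 each), lower in St2-/- hosts by a log2 fold change of -2.83 (SE 0.58, adjusted p = 0.0416). The cytokine gene Tnf missed the threshold at -1.01 (SE 0.22, edgeR adjusted p = 0.0502), as did Il17rc, a chain of the IL-17 receptor, at -0.82 (edgeR adjusted p = 0.0674), and Cebpd, a transcription factor induced by IL-17, at -0.53 (edgeR adjusted p = 0.0874). The median of the 27 was -0.40, with 21 below 0, against 50.2% of all genes. Of the 27, 11 were lower and 1 higher at an unadjusted p under 0.05, a level reached by 20.6% of all genes. Of 4 tested relatives and decoy receptors of these chemokines, Ccrl2, an atypical receptor that binds chemerin, fell to 3.08 ± 1.95 CPM in St2-/- hosts, against 7.07 ± 1.19 CPM in WT hosts (SD, n = 6 each), or -1.41 on the log2 scale (SE 0.22, adjusted p = 0.00984 by edgeR). The other 3 were not called. Whether the calls of Nos2 and Ccrl2 hold without the libraries high in smooth muscle markers was not tested.

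Some CXC chemokines that do not act through CXCR2 were called between hosts, where 1.37% of all genes were called. Of 12 such ligands and receptors tested, 8 were below 0, and 6 had an unadjusted p under 0.05, all lower, against 20.6% of all genes. From these 12 edgeR called 3, all of them lower in St2-/- hosts and all of them interferon-inducible ligands of CXCR3, a chemokine receptor of T cells. On the log2 scale Cxcl9 stood at -4.00 (SE 0.72, adjusted p = 0.0246), Cxcl10 at -3.25 (SE 0.56, adjusted p = 0.0220) and Cxcl11 at -3.27 (SE 0.59, adjusted p = 0.0257). The difference between these and the neutrophil chemokines was not tested. Whether the calls of Cxcl9, Cxcl10 and Cxcl11 hold without the libraries high in smooth muscle markers was not tested either. Among 15 tested S100 relatives and calgranulin receptors 12 were below 0 and 0 were called by edgeR. An unadjusted p under 0.05 was reached by 6 (5 lower and 1 higher), against 20.6% of all genes. S100a13, a small calcium-binding protein, stood at -0.57 (edgeR adjusted p = 0.0687). Tlr4, a receptor to which S100A8 and S100A9 can bind, stood at -0.69 (edgeR adjusted p = 0.148). Of 11 genes of leukocyte adhesion and passage 8 were below 0 and 0 were called by edgeR. An unadjusted p under 0.05 was found for 2 of 11, near the 20.6% of all genes. Icam1, an endothelial ligand of leukocyte integrins, was at -0.97 (edgeR adjusted p = 0.0791).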

How the data were processed

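Tumour RNA was measured in 12 libraries, 3 in each of 4 groups assigned from the labels' titles. The authors deposited raw read counts per gene. TopHat and Bowtie2 and the builds GRCm38 and mm10 are named in the submitters' processing notes. Their versions, the tool that counted and its use of strand are not given in the sources used here. Entries naming no gene, 49.8% to 59.6% of a library's total, were left out. No column lacked a sample (0). Because reads that were not unique were not counted for any gene and strand is unknown, close relatives such as the Stfa genes are uncertain.

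Counts were tested with edgeR 4.0.16 (R 4.3.3). Genes were filtered with filterByExpr by group (minimum count 10), leaving 15060 and removing 9002, and scaled by TMM (factors 0.899 to 1.12). A robust quasi-likelihood model had 1 coefficient a group, and 8 contrasts were tested two-sided with Benjamini-Hochberg adjustment over all genes tested. Each SE of an edgeR log2 fold change was worked back from the test, as its absolute value divided by the square root of the F statistic. CPM are counts scaled to the library size after TMM, RPKM divide these by the exon length in GENCODE M21, and log2 CPM used a prior count of 2. The step was tested on simulated counts.

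The members and gene lists were chosen with earlier results of these data known. Other genes were named by rule: up to 4 of a list with the smallest p between hosts, all called members of a list, and the 5 genes most correlated with S100a8, Cxcl2 and Csf3r, leaving out Gm-numbered and Rik genes. Alternatives used DESeq2 1.42.0, its size factors, limma-voom (limma 3.58.1) with quality weights, other filters, the replicate number as a block, a covariate for weeks, fits to the compared groups alone, and libraries left out. Figures were drawn with matplotlib 3.10.9 in Python 3.11.15.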

Additional observations from a re-analysis of the deposited data

How the results depend on the processing

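Over the 8 comparisons, the number of members called was 0 by edgeR and moved in 3 of them. By DESeq2 it was 2 in WT => St2-/- against WT => WT. By limma-voom it was 1 between hosts, 1 in WT => St2-/- against WT => WT and 3 in St2-/- => St2-/- against WT => WT. Leaving out 1 library at a time gave 0 to 1 between hosts and 0 to 1 in WT => St2-/- against WT => WT, in both the 1 being S100a8 without WT => St2-/- replicate 1. Those fits keep the libraries of that group that were high in smooth muscle markers. The log2 fold changes that follow turned sign, from values between -0.75 and 0.79 in the text. That of Retnlg between hosts was -0.76 by limma-voom, -0.074 with weeks as a covariate, -0.29 without WT => St2-/- replicates 2 and 3, and between -0.57 and 0.37 with 1 library left out. Between hosts within St2-/- marrow, Retnlg was -0.77 by limma-voom and between -0.091 and 1.32 with 1 library left out, and Cxcl5 between -0.94 and 0.010. Without WT => St2-/- replicates 2 and 3, Cxcl2 between hosts was 0.038 and Cxcl5 in WT => St2-/- against WT => WT was 0.16. The cause was not tested. The fold changes given in the text were chosen after the values were seen. Over all 72 fold changes of the 9 members and 23 alternatives, 88 of 1627 values turned sign, in 32 fold changes, and 40 kept their sign throughout. Same-numbered libraries did not deviate together (r from -0.44 to 0.31 over 18 pairs, 5 above 0.1), so the numbers do not pair the tumours, and with the replicate number as a block edgeR called 0 members in each comparison, with S100a8 between hosts at -1.66. The 5 genes named as most like S100a8 shared 3 with the 5 by Spearman's rho and 0 with those by r within groups, and those of Cxcl2 shared 1 and 1. Csf3 and Retnlg rested on few reads. In WT => St2-/- replicate 2, so did S100a8 (14 reads), Cxcl3 (14) and Cxcr2 (6), and in replicate 3 Cxcr2 (13).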
